A study of Mus musculus with 4 samples.

Results

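The 8 genes described here encode enzymes that make superoxide, hydrogen peroxide or nitric oxide, with the subunits that the oxidases need. They are Duox2, Duoxa2, Nox1, Noxo1, Noxa1, Cyba, Nox4 and Nos2, out of 19938 genes measured. Each was measured by 1 probe set, a group of probes on the array that names this gene and no other in the platform annotation. The genes were picked by name with earlier results of the same arrays known, in which Duox2, Duoxa2 and Nox1 had large differences, so their values are given as a description. Expression was profiled in the colon of male C57BL/6 mice, 11 weeks old, that ate for 14 days a diet rich in fat (40% of its energy) and low in calcium. The treated mice had heme, the iron-bearing pigment of red meat, added at 0.5 µmol/g, and the control mice had the same diet with no heme. Laser capture microdissection, which cuts chosen cells out of a tissue section, gave surface cells and crypt cells of the same mice. The 4 groups were heme surface (3 mice), control surface (4 mice), heme crypt (3 mice) and control crypt (4 mice). The RNA of each group was pooled and put on 1 array, so nothing below has a replicate check and no test was possible. In such pools, fewer cells of a type and less RNA per cell cannot be told apart.

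NADPH oxidases move electrons from NADPH across a membrane to oxygen. In the colon, the dual oxidase Duox2 releases hydrogen peroxide at the apical face of the epithelium and needs the maturation factor Duoxa2 to leave the endoplasmic reticulum. Nox1 makes superoxide in colonic epithelial cells in a complex with the organiser Noxo1, the activator Noxa1, the membrane partner encoded by Cyba, and the small GTPase Rac1. Nox4 is an oxidase that is active without such an organiser or activator, and Nos2 is the inducible synthase that makes nitric oxide from arginine. Duox2 and Nos2 are known to be induced by microbes and inflammatory cytokines.

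Values are log2 expression, so that a difference of 1 is 2-fold. A gene was called higher or lower when the difference was 2-fold or more and some array in the comparison was at or above 5.75, the median of all gene values, here called the floor. Of the 8 genes, 7 reached the floor on at least 1 array and Nox4 on none. Across the arrays, 9 general epithelial genes averaged 11.6 in heme surface, 11.6 in control surface, 10.5 in heme crypt and 10.6 in control crypt cells. Of 10 surface colonocyte markers, 9 were called higher in surface cells than in crypt cells on both diets, and none was called lower. Crypt base and progenitor markers were called lower in surface cells for 9 of 10 on heme and 10 of 10 on the control diet. Some markers of other cell types reached the floor in the pools. The means of 12 leukocyte markers were 6.59 in heme surface, 6.50 in control surface, 6.09 in heme crypt and 6.47 in control crypt cells. Those of 12 fibroblast and muscle markers were 7.73 in heme surface, 8.07 in control surface, 7.74 in heme crypt and 8.57 in control crypt cells. All 8 neutrophil markers lay below the floor on every array.

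Duox2 and Duoxa2 lie head to head on mouse chromosome 2, and their promoter sequences are shown because the pair differed together. In build GRCm38.p6, Duox2 runs from 122279246 to 122298740 on the minus strand and Duoxa2 from 122298900 to 122302885 on the plus strand, which leaves 159 bases between the annotated genes. The windows below, from RefSeq on GRCm38.p6, each hold 250 bases before and 50 after a start site. They are chr2:122298178-122298477 on the minus strand for Duox2 and chr2:122298650-122298949 on the plus strand for Duoxa2, printed 5′ to 3′ on the strand of the gene, and the start sites they use are 673 bases apart. The Duox2 window lies wholly inside the annotated Duox2 gene, around a start site within it. The 159 bases between the genes fall only in the Duoxa2 window, so the Duox2 motif results do not cover them. Capitals mark the matches to the motifs searched, on either strand, and positions below count from the start site.
Duox2: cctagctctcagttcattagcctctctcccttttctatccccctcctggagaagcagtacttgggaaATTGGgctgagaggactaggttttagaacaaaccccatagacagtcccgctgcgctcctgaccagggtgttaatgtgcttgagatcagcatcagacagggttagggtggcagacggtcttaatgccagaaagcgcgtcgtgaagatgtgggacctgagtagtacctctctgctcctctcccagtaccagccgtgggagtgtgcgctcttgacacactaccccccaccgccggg
Duoxa2: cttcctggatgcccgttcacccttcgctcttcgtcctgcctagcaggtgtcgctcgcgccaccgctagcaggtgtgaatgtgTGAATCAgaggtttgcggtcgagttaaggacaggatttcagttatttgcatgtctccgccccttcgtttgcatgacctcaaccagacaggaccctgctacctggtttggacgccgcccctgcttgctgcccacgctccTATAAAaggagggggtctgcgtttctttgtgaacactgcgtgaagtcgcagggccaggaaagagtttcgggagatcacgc
The Duoxa2 window holds TATAAA from -30 to -25, a motif in 13.6% of 32851 promoter windows. From -168 to -162 it matches TGANTCA, a loose form of the AP-1 site that allows any base in the middle. The match is TGAATCA, with A in the middle, and the loose form is in 7.81% of windows. The Duox2 window holds a reverse-strand match to CCAAT from -183 to -179, a motif in 37.4% of windows. Neither window holds a match on either strand to TGACNNNGC, the core of the antioxidant response element (12.4% of windows), TTCNNNGAA for STAT factors (8.3%), the core of interferon-responsive elements, GAAA with 2 bases of any kind before another GAAA (3.44%), or a form of the NF-kB site, GGGA with 1 base of any kind before TTTCC (0.411%). The matches do not overlap one another. Windows were found for 7 of the 8 genes, all except Nos2, and those of Nox1, Noxo1 and Cyba held no match to any of the 7 motifs. Noxa1 held a CCAAT match and Nox4 a TTCNNNGAA match.

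Heme-fed surface cells had much less RNA of the hydrogen peroxide-producing pair than control surface cells. Duox2 was at 7.72 in heme surface cells, against 10.53 in control surface cells, a difference of -2.81 that is 7.0-fold on the linear scale. Duoxa2 was at 6.22 in heme surface cells, against 8.96 in control surface cells, a difference of -2.74 or 6.69-fold. These were the 10th and the 11th lowest of 10282 genes in this comparison. The oxidase and its maturation factor thus differed by nearly the same amount, with 0.07 between their log2 differences. In the same comparison the medians over all measured genes of a marker list were -0.06 for 9 general epithelial genes, 0.10 for 12 leukocyte, 0.08 for 8 endothelial and 0.15 for 10 crypt base and progenitor markers, and -0.44 for 12 fibroblast and muscle markers. Over the markers that reached the floor in this comparison, the leukocyte median was -0.03 (10 genes) and the crypt base and progenitor median -0.16 (7 genes), so neither has a settled sign. The part of the fibroblast and muscle markers in the values of the pair was not tested.

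In crypt cells the same pair did not differ in that way. Duox2 was at 8.15 in heme crypt cells and 8.00 in control crypt cells, a difference of 0.16. Duoxa2 was at 6.89 in heme crypt cells and 6.13 in control crypt cells, a difference of 0.77 (1.70-fold), under the 2-fold rule. For both genes the control surface array stood above the other 3. Duox2 spanned 7.72 to 8.15 on those 3 arrays and Duoxa2 6.13 to 6.89, each at least 2 log2 units below its control surface value.

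**Figure D1:**
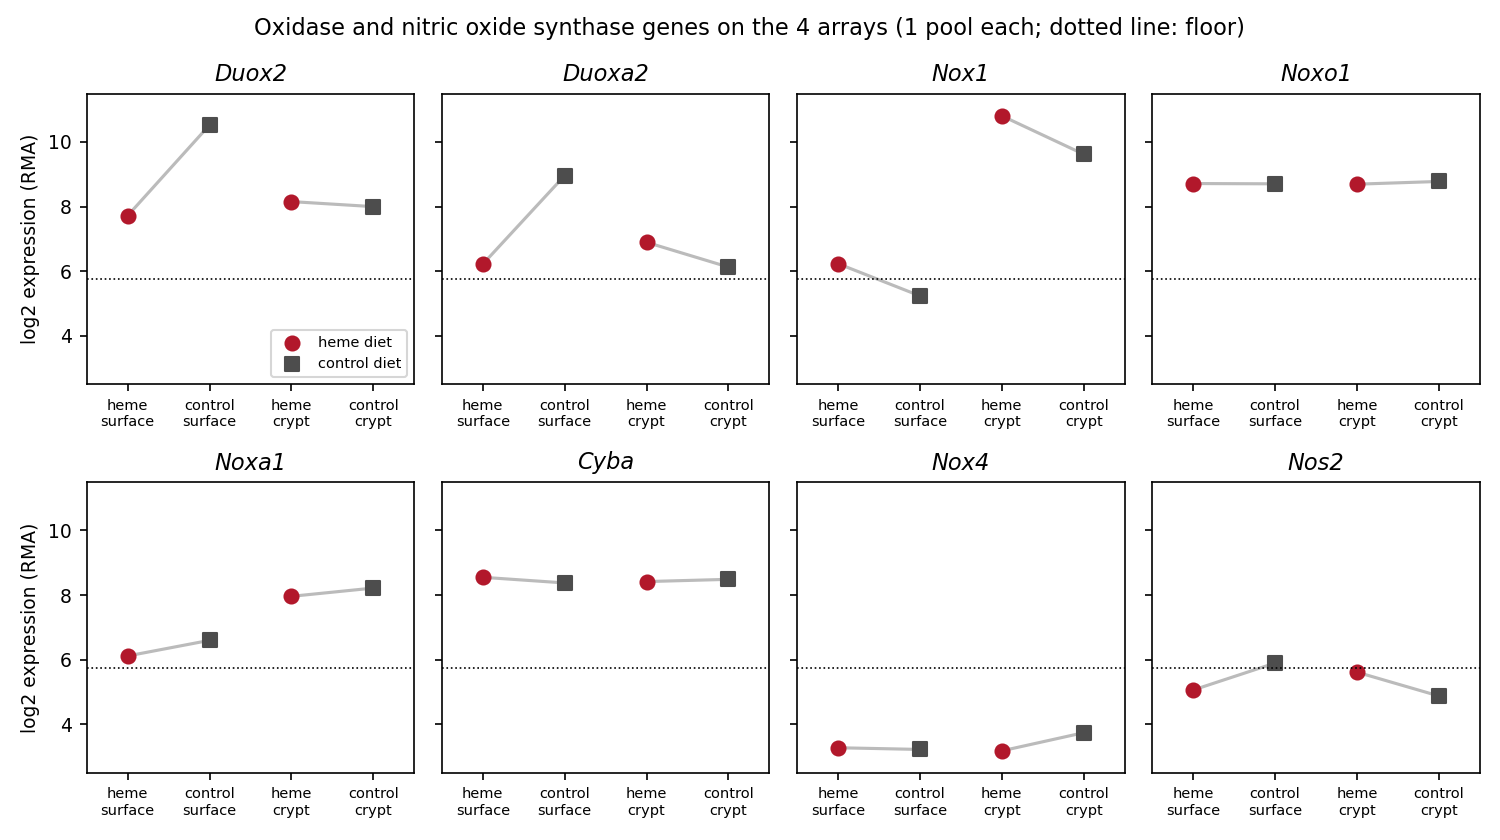
Log2 expression (RMA, y axis) of the 8 genes on each of the 4 arrays (x axis), with heme pools as circles, control pools as squares and the floor of 5.75 as a dotted line. Each point is 1 pool. Duox2 and Duoxa2 have 1 high array, control surface, at 10.53 and 8.96, while Nox1 and Noxa1 are high in both crypt pools.

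The surface difference between diets less the crypt difference was -2.96 for Duox2 and -3.51 for Duoxa2. Among 11147 genes these ranked 3rd and 2nd from the lowest, also under the 9 alternative settings, most of which cannot reorder genes. Centring shifts all genes alike, and the floors, the 3-fold rule and the highest probe set leave the values of the pair unchanged. With 32 added to the linear values the gaps were -2.77 for Duox2 and -2.88 for Duoxa2, and with cyclic loess -3.03 and -3.49. All 4 arrays enter this quantity, and with 1 array a group it has no error. As a list, the surface colonocyte markers did not share the surface part of the pattern. In heme against control surface cells, Slc9a3 differed by 0.79, Aqp8 by 0.61, Krt20 by 0.43, Car4 by -0.25 and Ceacam20 by -0.88. The list of 10 had a median of -0.02, with 5 below 0. Of the 10, 1 (Tmigd1, 2.28) was called higher and none lower, against 3.62% and 2.01% of 10282 genes. In crypt cells 5 of those 10 markers were called higher on heme and none lower, against 1.78% and 1.19% of 10491 genes. Among the 5 were Aqp8 (2.55), Slc9a3 (2.05) and Krt20 (1.25), and the list median was 0.93. The list did not move as one, since 3 of the 10 lay below 0, the lowest being Guca2a (-0.59). The called markers moved beside the Duoxa2 difference of 0.77 in crypt cells, and their part in it was not tested.

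Of the measured neighbours of the pair, only Shf reached the floor and could be called, and it was not called in any comparison. Within 100 kb on either side, 6 other protein-coding genes are annotated, of which 5 were measured. Duoxa1 and Duox1, the second pair of a maturation factor and a dual oxidase at this locus, lay below the floor on all 4 arrays. Duox1 was at 4.08 in heme surface, 4.24 in control surface, 4.26 in heme crypt and 4.09 in control crypt cells. Duoxa1 ranged from 4.70 to 4.89. Shf, on the far side of Duox1, differed by -0.10 in heme against control surface cells. Patl2 and Terb2 were below the floor on every array.

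The genes with the 4-array profile nearest to Duox2, by Euclidean distance after each gene's own mean was taken off, were Slc46a1 (0.26), Duoxa2 (0.44) and Trpv6 (0.55), among 10675 genes ranked. For Duoxa2 they were Duox2 (0.44), Slc46a1 (0.59) and Trpv6 (0.78). Slc46a1 encodes the proton-coupled folate transporter, which has also been studied as a heme carrier. It was at 5.81 in heme surface cells, against 8.75 in control surface cells, and at 6.01 in both crypt pools. Trpv6, an apical calcium channel gene, was at 4.72 in heme surface cells, against 6.84 in control surface cells, and at 4.49 in heme crypt and 4.62 in control crypt cells, so that 3 of its 4 values lie below the floor. A distance over 4 pools is a description of shape and carries no error.

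Nox1 differed from Duox2 in where it was high and in how it differed between the diets. Nox1, on chromosome X from 134086421 to 134137711, was at 10.81 in heme crypt cells and 9.62 in control crypt cells, a difference of 1.19 (2.28-fold). It was called higher on heme in crypt cells and ranked 121st of 10491 genes from the top. In surface cells it was at 6.23 on heme and 5.24 on the control diet, a difference of 1.00 (0.997 before rounding) that just missed the 2-fold rule, with the control value below the floor. With 32 added to the linear values before the log was taken, to damp low values, the surface difference was 0.62 and the crypt difference 1.16. Nox1 thus had the higher value on heme in both compartments.

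Nox1 lay on the crypt side on both diets. Surface minus crypt was -4.58 on heme (23.8-fold lower in surface cells) and -4.38 on the control diet (20.9-fold). On heme this was the lowest difference of 10698 genes, and on the control diet the second lowest of 10864. The first of these ranks held under the 9 alternatives, most of which cannot reorder genes, and the rank on the control diet moved between 2nd and 3rd. Because the surface values of Nox1 lie near or below the floor, the size of the difference is less certain than its direction. With the added 32, it was -4.09 on heme and -3.55 on the control diet.

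Marker genes of crypt cells differed beside Nox1. In heme against control crypt cells, the dividing-cell genes Ccna2 (1.51) and Mki67 (0.89) had higher values, while the stem cell genes Lgr5 (-1.07) and Ascl2 (-0.79) had lower ones, and the 10 crypt base and progenitor markers had a median of -0.26. In heme against control surface cells, the deep crypt secretory genes Reg4 (1.23) and Spink4 (1.56) were called higher and Kit (-1.03) was called lower. Over the 9 measured deep crypt secretory and goblet markers, the median in surface cells was -0.12, with 5 below 0. Of all genes, 3.62% were called higher and 2.01% lower in surface cells. In heme against control crypt cells, most markers of non-epithelial cells had lower values. The fibroblast and muscle markers had a median of -0.72, with 12 of 12 below 0 and 3 called lower, among them Lum (-1.38). The endothelial markers had a median of -0.71, with 8 of 8 below 0 and Cd34 (-1.20) called lower, and their mean was 6.08 in heme crypt cells, against 6.75 in control crypt cells. Of the 12 leukocyte markers, 9 lay below 0, with a median of -0.57, and Csf1r (-1.02) and H2-Aa (-1.08) were called lower. Of 9 deep crypt secretory and goblet markers, 8 lay below 0 there, with a median of -0.48 and none called, among them Kit (-0.98), Clca1 (-0.82) and Spdef (-0.76). Over all genes 1.19% were called lower in this comparison. The part of these shifts in the Nox1 values was not tested. The genes with the nearest profiles to Nox1 were D17H6S56E-5 (0.83), Reg4 (0.91) and Clca3a2 (1.09), all high in crypt cells.

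The partners of Nox1 did not share its diet difference. Noxa1 (chr2:25085667-25095205), encoding the activator, was at 6.12 in heme surface and 6.60 in control surface cells, and at 7.96 in heme crypt and 8.22 in control crypt cells. Its heme minus control differences were -0.48 in surface and -0.26 in crypt cells, opposite in sign to those of Nox1. Between compartments it followed Nox1 to a smaller extent, with surface minus crypt at -1.85 on heme and -1.62 on the control diet. Centring the arrays on ribosomal protein genes brought these to -0.70 and -0.35, under the 2-fold rule. Poli, Txndc5 and Elp3 had the profiles nearest to Noxa1, at distances of 0.06 to 0.09.

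Noxo1 and Cyba were nearly flat. Noxo1 (chr17:24696234-24700530), encoding the organiser, was at 8.71 in heme surface, 8.70 in control surface, 8.69 in heme crypt and 8.78 in control crypt cells. Its range of 0.08 was smaller than that of all but 0.32% of the 11147 genes that reached the floor. Cyba (chr8:122424771-122432940), whose product also serves Nox4 and the phagocyte oxidase, was at 8.55 in heme surface, 8.38 in control surface, 8.42 in heme crypt and 8.49 in control crypt cells, a range of 0.17 that was smaller than all but 2.67%. A flat value between surface and crypt depends on the scaling of the arrays. Centred on ribosomal protein genes, surface minus crypt was 1.17 for Noxo1 and 1.28 for Cyba on heme, and 1.19 and 1.16 on the control diet. Centred on epithelial genes, it was -1.15 for Noxo1 and -1.03 for Cyba on heme, and -1.18 and -1.22 on the control diet. Their heme against control differences stayed between -0.08 and 0.28 under all 9 alternatives in both compartments.

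**Figure D2:**
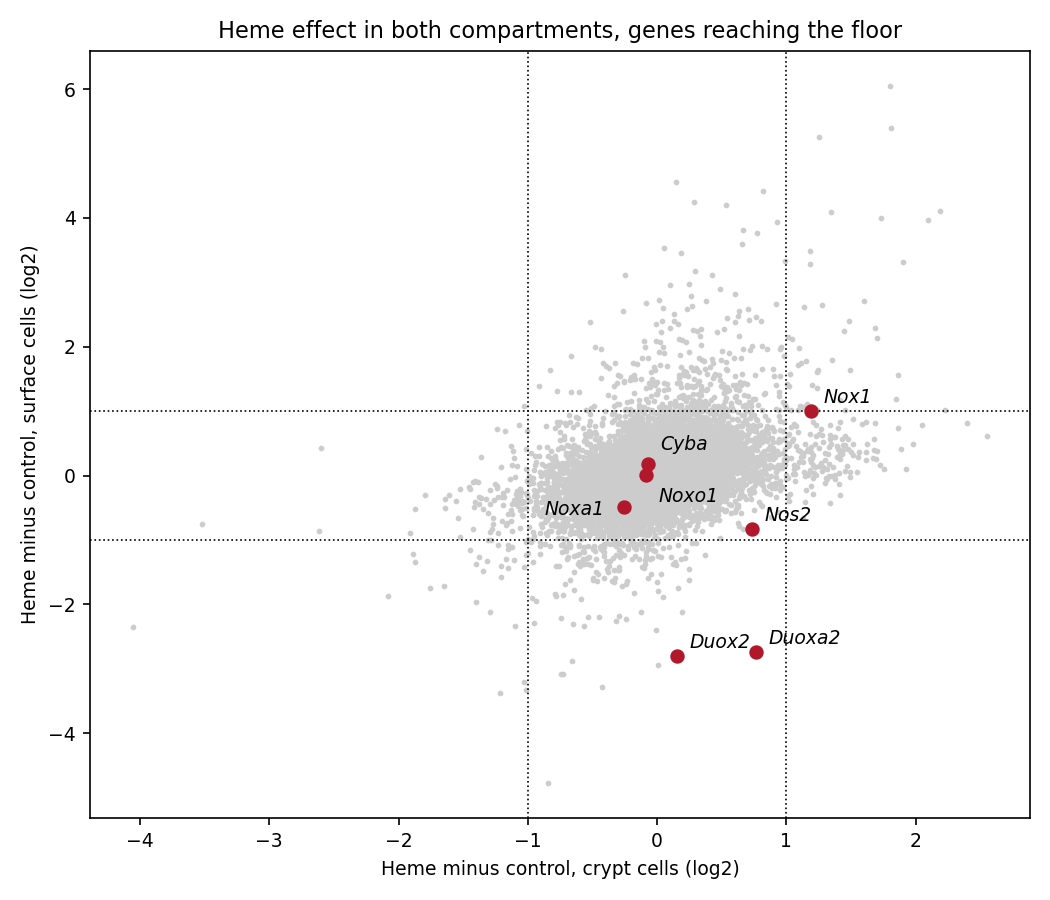
Heme minus control in crypt cells (x axis, log2) and in surface cells (y axis, log2), with 11147 genes that reached the floor in grey, 7 of the 8 described genes in red and 2-fold as dotted lines. Duox2 and Duoxa2 sit at -2.81 and -2.74 on the y axis with 0.16 and 0.77 on the x axis, and Nox1 sits at 1.00 on the y axis with 1.19 on the x axis.

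Nox4 and Nos2 had low values throughout. Nox4 (chr7:87244430-87398710) was at 3.27 in heme surface, 3.22 in control surface, 3.18 in heme crypt and 3.74 in control crypt cells, all below the floor, and no change can be read from it. Nos2 (chr11:78920787-78960226) was at 5.06 in heme surface cells, against 5.89 in control surface cells, and at 5.61 in heme crypt cells, against 4.88 in control crypt cells. Only the control surface value lies above the floor, and by 0.14. The heme differences of Nos2 were -0.83 in surface and 0.74 in crypt cells, neither 2-fold, and their gap of -1.57 ranked 37th lowest of 11147. With the added 32 the gap was -0.88. The signs were those of Duox2 and Duoxa2 in both compartments. The profiles nearest to Nos2 were those of the chemokine gene Ccl20 (0.26), Apoa5 (0.28) and Slc2a6 (0.28).

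Counted together, 2 of the 7 genes that reached the floor were called lower on heme in surface cells and none higher, against 2.01% of 10282 genes called lower and 3.62% called higher. In crypt cells 1 of 6 (Nox1) was called higher and none lower, against 1.78% and 1.19% of 10491 genes. Between compartments on heme, 2 of 6 (Nox1 and Noxa1) were called lower in surface cells and none higher, against 16.5% and 15.3% of 10698 genes. On the control diet 3 of 7 (Duox2, Duoxa2 and Nos2) were called higher in surface cells, against 12.0% of 10864 genes, and 2 (Nox1 and Noxa1) lower, against 13.5%. For the gap between the heme effects, 3 of 7 (Duox2, Duoxa2 and Nos2) were called lower and none higher, against 2.17% and 3.29% of 11147 genes. The medians of the genes that reached the floor were -0.48 and 0.04 for heme in surface and crypt cells, against -0.02 and 0.01 for all genes tested. Since the genes were chosen with these contrasts known, nothing is read from the shares.

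On heme, surface minus crypt was -0.44 for Duox2 and -0.68 for Duoxa2, neither 2-fold. On the control diet the same differences were 2.53 and 2.83, or 5.76-fold and 7.13-fold higher in surface cells. The values on heme turned to 0.71 and 0.47 with ribosomal protein centring and to -1.60 and -1.84 with centring on epithelial genes, so no direction is given for them. The scalings move the median of all genes by a like amount, to 1.15 and -1.24 on heme and to 1.28 and -1.16 on the control diet. On the control diet Duox2 stayed between 1.42 and 3.79 and Duoxa2 between 1.72 and 4.10 over the alternatives. A higher surface level of the pair was thus not called in the heme pools and was called in the control pools, and both comparisons share their crypt and surface pools with the heme comparisons above.

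**Figure D3:**
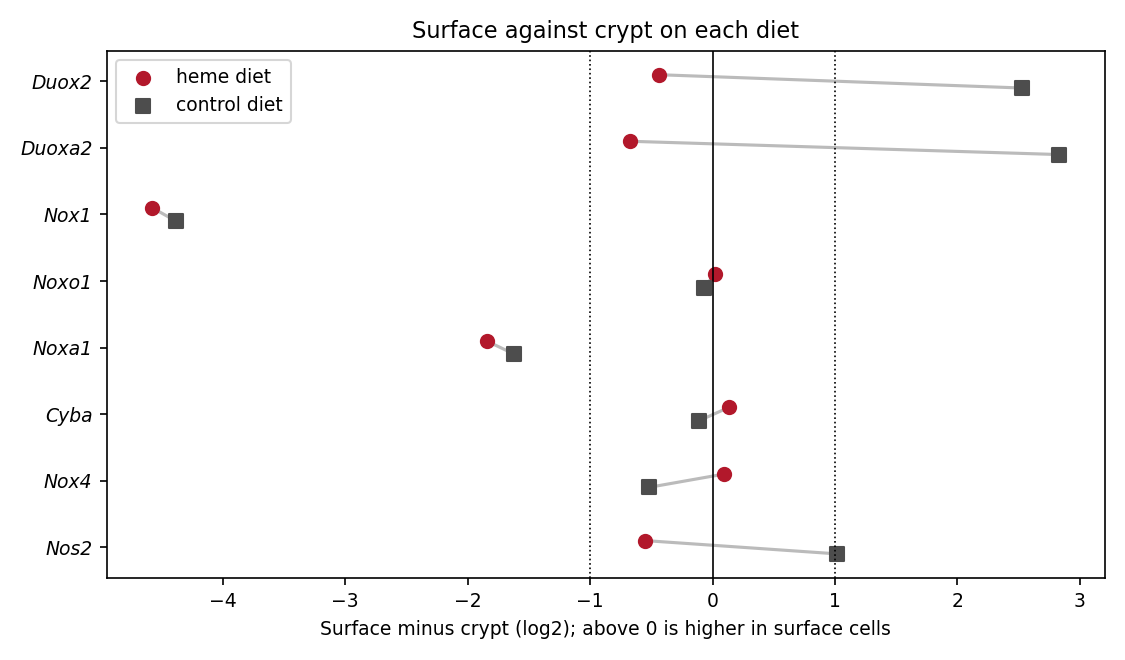
Surface minus crypt (x axis, log2) for the 8 genes (rows) on the heme diet (circles) and the control diet (squares), with 2-fold as dotted lines. Duox2 and Duoxa2 sit at -0.44 and -0.68 on heme and at 2.53 and 2.83 on the control diet, while Nox1 sits at -4.58 and -4.38.

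Other genes of reactive oxygen and nitric oxide metabolism gave the setting. Of 15 further oxidase, regulator and peroxidase genes, 14 were measured and 7 reached the floor. Lpo, encoding the lactoperoxidase that uses hydrogen peroxide, was the 1 called higher on heme in each compartment, and none was called lower. Over all genes, 3.62% were called higher and 2.01% lower in surface cells, and 1.78% and 1.19% in crypt cells. Lpo was at 6.84 in heme surface cells, against 5.13 in control surface cells. In crypt cells it was at 7.67 on heme, against 6.58 on the control diet. The list medians were 0.09 in surface and 0.09 in crypt cells. The phagocyte oxidase gene Cybb was at 6.85 in heme surface and 6.64 in control surface cells, and at 5.77 in heme crypt and 6.38 in control crypt cells. Rac1, the GTPase used by Nox1, was between 10.39 and 11.11 on all 4 arrays.

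Enzymes that remove superoxide and peroxides were counted in heme against control surface cells. Of 16 measured, 14 reached the floor, 5 were called higher and none lower, against 3.62% of 10282 genes called higher and 2.01% called lower. Of the 14, 13 lay above 0, and the median was 0.59, against -0.02 for all genes tested. The 5 were the glutathione peroxidase gene Gpx2 (1.56), the peroxiredoxin genes Prdx1 (1.50) and Prdx3 (1.10), the catalase gene Cat (1.44) and the thioredoxin reductase gene Txnrd1 (1.07). Gpx2, like Nox1, was on the crypt side, with surface minus crypt at -2.20 on heme and -3.00 on the control diet. In crypt cells none of the 14 passed the rule, 13 lay above 0, and the median was 0.22. Of the nitric oxide list, 9 of 15 measured genes reached the floor in surface cells. Gch1 (1.10), which makes the cofactor tetrahydrobiopterin, and Ddah1 (1.64), which degrades an inhibitor of the synthases, were called higher on heme and none lower, against the same 3.62% and 2.01%, and the median was 0.37. None of 7 passed in crypt cells (median 0.17).

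Receptors, adaptors, transcription factors and inhibitors of the signals known to induce Duox2 and Nos2 were also counted. The list joins genes that pass these signals on with genes that inhibit them, so its counts and median give no direction of signalling. In heme against control surface cells, 22 of its 23 measured genes reached the floor. Of these, 2 were called lower and none higher, against 2.01% of 10282 genes called lower and 3.62% called higher. Of the 22, 15 lay below 0, with a median of -0.19, against -0.02 for all genes tested. Il22ra1, the interleukin-22 receptor gene, was at 8.64 in heme surface cells, against 9.74 in control surface cells, and the interferon-induced factor gene Irf1 was at 7.11 in heme surface cells, against 8.25 in control surface cells. Relb differed by -0.77. In crypt cells none of 21 passed the rule, with a median of 0.00. Of 16 antimicrobial and inflammation genes, 7 reached the floor in surface cells. Of these, 2 were called lower on heme and none higher, against the same 2.01% and 3.62%, with a median of -0.75. Over all 16 the median was 0.32, with 7 below 0, so the list has no settled sign. Under the floor, Cxcl5 was at 5.73 in heme surface cells, against 3.54 in control surface cells, and Reg3g at 5.44, against 4.04. The antibody transporter gene Pigr was at 10.59 in heme surface cells, against 12.09 in control surface cells, and Ang4, an antimicrobial ribonuclease gene, was at 5.15 in heme surface cells, against 6.42 in control surface cells. Reg3b, Reg3g, Lcn2, S100a8 and S100a9 lay below the floor on all 4 arrays. In crypt cells Pla2g2a (1.62) was called higher and Il18 (-1.07) lower, of 6 that reached the floor, against 1.78% and 1.19% of 10491 genes.

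**Figure D4:**
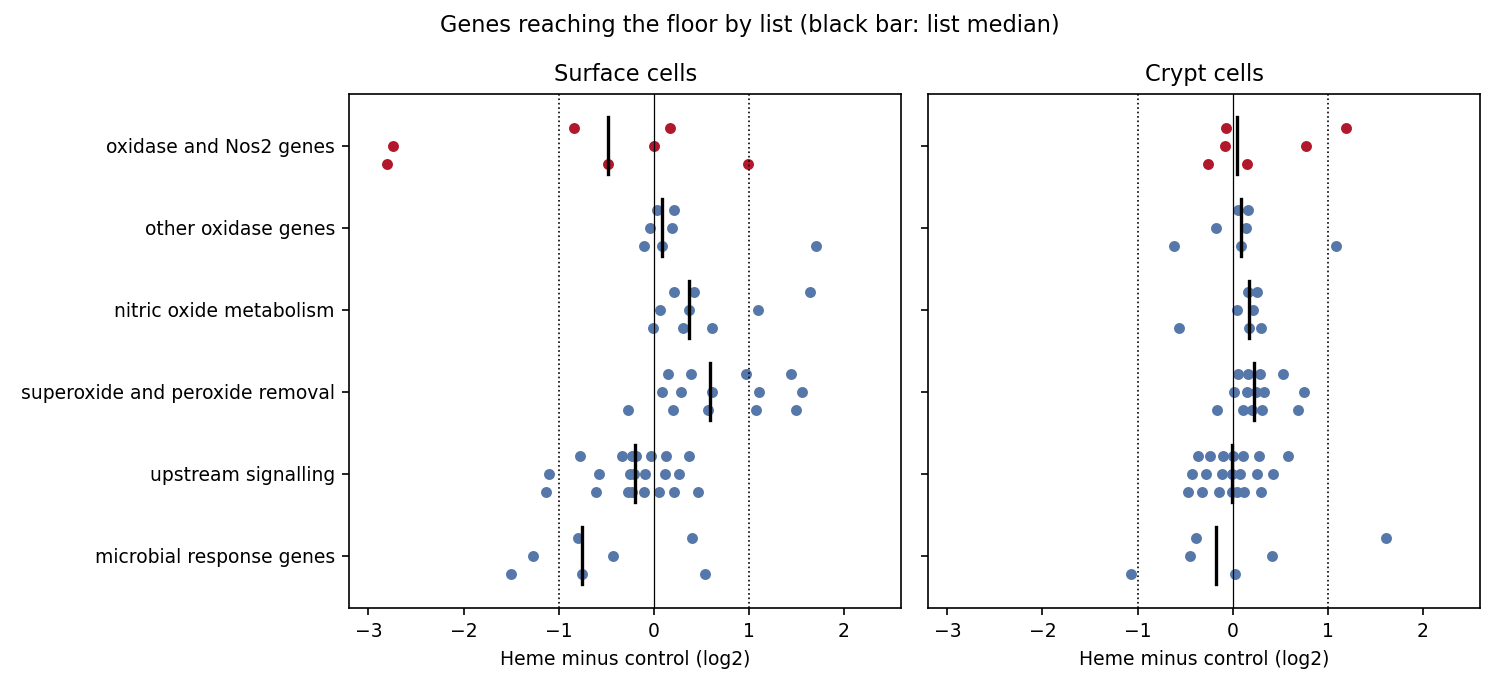
Heme minus control (x axis, log2) in surface cells (left) and crypt cells (right) for the genes of 6 lists (rows) that reached the floor, with 1 point a gene, black bars for list medians and 2-fold as dotted lines. In surface cells the medians run from -0.75 for microbial response genes to 0.59 for superoxide and peroxide removal. Over all 16 measured microbial response genes, with those under the floor, the surface median was 0.32.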

How the data were processed

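The values are log2 expression per probe set, deposited by the authors. The submitters' processing notes name RMA, which corrects the background, equalises the distributions of the arrays and summarises probes, and so limits differences shared by most genes. Its version is not given in the sources used here, nor is which arrays were processed jointly. Per the labels' protocols, 100 ng of pooled RNA was labelled for each array.

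Of 35556 probe sets, 21789 named 1 gene symbol, 1621 named several and 12146 none. Of those naming 1, 21698 had a gene identifier found in the reference annotation. The symbol given there was used, whether or not it differed. Genes are means of their probe sets. The 8 genes, the gene lists and the alternatives were chosen with earlier results of these data known. All 8 genes are named, and for each that varied 2-fold the 3 genes with the nearest profile. From the other lists, up to 4 genes with the largest difference in a comparison are named. Other list genes named, and the neighbours of Duox2, were chosen for function, value or position after values were seen. These list genes were Krt20 and Car4 in surface cells, Guca2a in crypt cells, Txnrd1, Reg3b, Reg3g, Lcn2, Cxcl5, S100a8 and S100a9. The number of arrays limits the precision. Calculations used Python 3.11.15, numpy 2.4.6, pandas 2.3.3, matplotlib 3.10.9, R 4.3.3 and limma 3.58.1 (cyclic loess). The alternatives were an offset of 32 on the linear scale, no floor, a floor at the 60th percentile of gene values, centring on all, ribosomal protein or epithelial genes, cyclic loess, the highest probe set of a gene and a 3-fold rule. The rule of size was run on simulated arrays with changes planted only in genes well above the floor. Calls among unchanged genes were not counted, so this run does not measure how often calls are wrong.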

Additional observations from a re-analysis of the deposited data

Results flagged for a closer look

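Genes were flagged when heme minus control had opposite signs in surface and crypt cells and the gap was called at 2-fold. These were Duox2, Duoxa2 and Nos2. Noxo1, Cyba and Nox4 also had opposite signs, but their gaps of 0.09, 0.24 and 0.61 were under 2-fold, and Nox4 lay below the floor. The surface difference minus the crypt difference was -2.96 for Duox2, -3.51 for Duoxa2 and -1.57 for Nos2. Each difference rests on 1 pool a group and was not tested. The crypt difference of Duox2, 0.16, is small, and 3 of the 4 Nos2 values lie below the floor.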

How the results depend on the processing

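With 1 pool a group, no result has a replicate error. Of 360 values of single genes under the 9 alternatives, 325 kept their sign and their side of the 2-fold rule. Another 18 kept their sign and lost or gained a call, and 17 changed sign. Signs were read from values rounded to 2 decimals, and a value that rounded to 0 was not counted as a change. Cyba centred on all genes had such a value for surface minus crypt on the control diet. The floors, the highest probe set and the 3-fold rule leave the differences of these genes unchanged by construction. No sign could change under them, so the counts do not measure stability. Heme against control in surface cells stayed between -2.86 and -2.64 for Duox2 and between -2.78 and -2.32 for Duoxa2, and Nox1 in crypt cells between 1.16 and 1.31. Nox1 reached 2-fold in surface cells when the arrays were centred on all genes (1.10) or on ribosomal protein genes (1.00), so that 1 gene, in place of none, was then called higher on heme there. At 3-fold, 0 genes were called higher in crypt cells.

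Surface against crypt depended on the scaling. With centring on 61 ribosomal protein genes, 2 genes were higher and 1 lower on heme, and 5 higher and 1 lower on the control diet. With centring on 9 epithelial genes, 7 were lower on heme and 4 on the control diet. On heme, Noxo1 (-1.15), Cyba (-1.03) and Nox4 (-1.07) turned with epithelial centring and Duox2 (0.71), Duoxa2 (0.47) and Nos2 (0.60) with ribosomal protein centring. On the control diet, Noxo1 (1.19), Cyba (1.16) and Nox4 (0.75) turned with ribosomal protein centring and Nos2 (-0.09) with epithelial centring, and Noxo1 also turned with centring on all genes (0.04) and cyclic loess (0.02). The other 5 sign changes were of heme comparisons of Noxo1 and Cyba, all with sizes of at most 0.09. The centrings on ribosomal protein and epithelial genes shift all genes between compartments by construction. Nos2 lost its calls with the added 32 (0.58 for surface minus crypt without heme), with a floor of 6.45 and at 3-fold.

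No paired analysis was possible because each diet gives only 1 matched pair, a surface pool and a crypt pool from the same mice, and surface minus crypt is already the difference within that pair. Signal over background was not measured, and the floor is the median of all gene values, not a detection limit. Nox4, Nos2 and the surface values of Nox1 lie near or below the floor.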
